A study of Mus musculus with 31 samples.

Results

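The proteasome genes described here are the 47 genes, of 20436 counted, whose symbol is Psma to Psmg followed by a number and whose mean level in the WT mRNA libraries was at least 1 CPM (counts scaled to the same total in every library). The symbol pattern matched 50 genes. By their known roles the 47 are 14 subunits of the constitutive core particle, 17 subunits of the regulatory particle, 7 assembly chaperones, 5 alternative activators and inhibitors, 3 inducible catalytic subunits and 1 gene, Psmc3ip, that is no subunit. Psmc3ip encodes a recombination protein named after its binding to Psmc3, and it is kept because the pattern includes it. The genes left out were Psma8 at 0.310 CPM, Psmb11 at 0.609 CPM and Psme2b at 0.843 CPM, and those just inside the limit were Psmb9 at 1.47 CPM, Psmb8 at 4.08 CPM and Psmc3ip at 4.52 CPM. All 47 passed the filter on low counts in both assays. How reads shared between Psme2 and its namesake copy Psme2b were assigned is not given in the sources used here.

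Cortex of mice aged 29 to 34 days (P29-34) was profiled in 4 genotypes. They were wild type (WT), Fmr1-deficient mice, a model of fragile X syndrome (FXS), Rps6kb1-deficient mice, which lack the ribosomal protein S6 kinase p70 S6K1 (S6K1), and double mutants that lack Fmr1 and Rps6kb1 (DKO). Ribosome profiling sequences the mRNA fragments that ribosomes protect (footprints), and polyadenylated mRNA was sequenced beside it. There were 4 mRNA libraries of each genotype, in batches 5 to 8 with each genotype once per batch, and 15 footprint libraries, 5 of FXS, 4 of WT and 3 each of S6K1 and DKO, spread unevenly over batches 1 to 4. The labels give no treatment, strain or kind of mutant allele. They do not say whether a library was 1 animal or a pool, or whether an animal gave both assays, so p-values measure the spread between these libraries.

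The proteasome is the main protease for ubiquitin-tagged proteins in cytosol and nucleus. Its barrel-shaped core particle is built from alpha rings, which gate entry, around beta rings, which hold the proteolytic sites. The regulatory particle caps the barrel. Its lid removes ubiquitin and its base, with a ring of ATPases, unfolds the substrate and feeds it in. Dedicated chaperones assemble both parts and then leave, alternative activators open the core without ubiquitin, and immune signals replace the catalytic beta subunits by inducible ones. In neurons the proteasome takes part in protein turnover at synapses.

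Total counts ran from 12.1 M to 17.3 M per mRNA library and from 16.6 M to 34.9 M per footprint library. Fmr1 fell to 16.4 CPM ± 3.96 (SD, n = 4) in FXS mRNA and 15.3 ± 4.56 (n = 4) in DKO mRNA, from 67.6 ± 9.71 (n = 4) in WT. Rps6kb1 footprints ran from 26.1 to 31.7 CPM in WT, from 7.62 to 12.8 in S6K1 and were 11.3, 11.7 and 11.97 in DKO. Calls are those of edgeR's quasi-likelihood test where p, after Benjamini-Hochberg adjustment across every gene tested, was under 0.05. Bulk tissue was measured, so fewer cells of a type and less RNA per cell cannot be told apart. Among markers of other cell types, footprints of the oligodendrocyte gene Cnp, which encodes a myelin enzyme, fell by 0.52 ± 0.0668 (SE) on the log2 scale in FXS against WT (adjusted p = 0.00785, edgeR) and by 0.64 ± 0.0828 in DKO against WT (adjusted p = 0.00456). Mog, a myelin glycoprotein gene, stood at -0.61 ± 0.127 in FXS (adjusted p = 0.0998) and -0.76 ± 0.157 in DKO (adjusted p = 0.0549). In TE of DKO against WT, Cnp (-0.71 ± 0.112, adjusted p = 0.00327), Mog (-0.78 ± 0.203, adjusted p = 0.0340) and Mag (-1.12 ± 0.249, adjusted p = 0.0230) were called lower, and none of these was called in DKO mRNA. Cnp was also called lower in TE of S6K1 against WT, where 0.0293% of all genes were called. Of 6 neuronal markers tested, only Slc17a7, a vesicular glutamate transporter gene, was called in DKO against WT. It was higher in mRNA (0.33 ± 0.0750, adjusted p = 0.0155) and lower in TE (-0.63 ± 0.172, adjusted p = 0.0402). Its mRNA change enters TE with the opposite sign. The medians over the 6 were 0.11 in mRNA and -0.16 in TE. Over all genes 5.23% were called in DKO mRNA and 4.85% in DKO TE. No oligodendrocyte marker listed was at 0 in every library, and the part of these cell types in the results below was not tested.

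In WT cortex the core particle genes all had more footprints for their mRNA than the median gene tested. The ratio of footprint CPM to mRNA CPM, on a log2 scale, needs no gene length, because a gene's counted length enters both terms. Over the 13654 genes tested in both assays its median was -0.35, and over the proteasome genes it was 0.19, with 39 of 47 above the median of all genes. All 14 core particle genes were above it, as were 15 of 17 regulatory particle genes, 6 of 7 chaperones, 3 of 5 activators and inhibitors and 1 of 3 inducible subunits. The class medians were 0.35 for the core particle, 0.20 for the regulatory particle, -0.01 for the chaperones, -0.17 for the activators and inhibitor and -0.72 for the inducible subunits. These are descriptions of levels in 4 libraries of each assay.

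**Figure D1:**
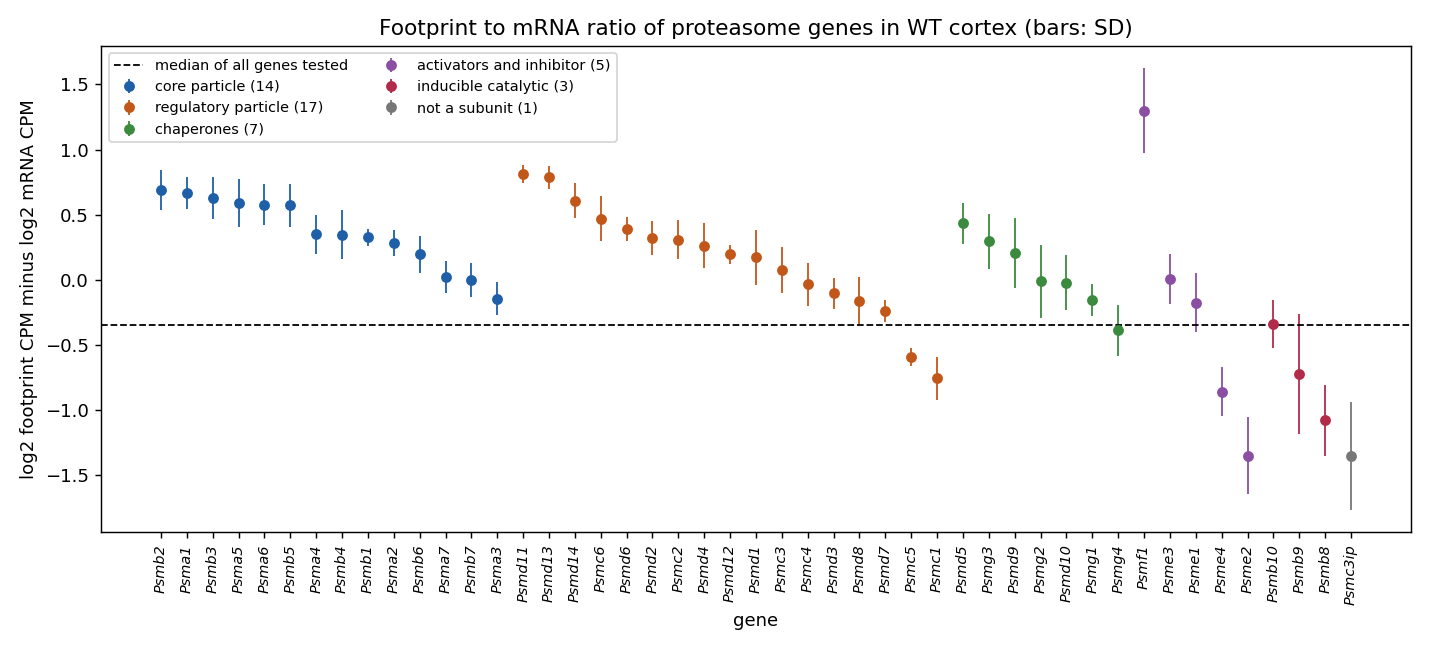
Log2 footprint CPM minus log2 mRNA CPM (y axis) of each of the 47 genes (x axis) in WT, ordered within class, with bars for the SD over footprint and mRNA libraries combined. All core particle genes lie above the dashed median of all genes tested (-0.35), while Psmg4, Psmc5, Psmc1, Psme4, Psme2, Psmb9, Psmb8 and Psmc3ip lie below it.

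Within the core particle the highest ratios were those of Psmb2 (0.69 ± 0.152 SD), a non-catalytic beta subunit, Psma1 (0.67 ± 0.125) and Psmb3 (0.63 ± 0.161), and the lowest was that of the alpha ring gene Psma3 (-0.15 ± 0.126). The constitutive catalytic subunits differed among themselves, with Psmb5 at 0.57 ± 0.165, Psmb6 at 0.19 ± 0.142 and Psmb7 at -0.00 ± 0.130. The lid genes Psmd11 (0.81 ± 0.0688), Psmd13 (0.79 ± 0.0891) and Psmd14 (0.61 ± 0.134), the last being the deubiquitinating subunit, led the regulatory particle. The ATPase ring held both high and low ratios. Psmc6 stood at 0.47 ± 0.173 and Psmc2 at 0.31 ± 0.147, Psmc3 at 0.07 ± 0.174 and Psmc4 at -0.04 ± 0.168, but Psmc5 stood at -0.59 ± 0.0700 and Psmc1 at -0.76 ± 0.163. Psmc5 and Psmc1 each had lower footprint CPM than mRNA CPM in all WT libraries, since their footprints ran from 261 to 278 CPM and from 194 to 238 CPM while their mRNA ran from 383 to 421 CPM and from 325 to 370 CPM. The median ratio of all genes tested was itself below 0, at -0.35. The ratios of Psmc5 and Psmc1 were higher than those of 41.5% and 36.1% of all genes tested. The ATPases assemble into a ring with 1 copy of each.

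The extremes of the whole family lay outside the particles themselves. Psmf1, which encodes the core inhibitor PI31, had the highest ratio at 1.30 ± 0.327, higher than 94.0% of all genes tested. Psme2, a subunit of the activator PA28, had a ratio of -1.35 ± 0.296, and Psme4, which encodes the activator PA200, one of -0.86 ± 0.186. These were higher than 20.7% and 33.3% of all genes tested. Psme3 and Psme1 stood at 0.01 ± 0.193 and -0.17 ± 0.226, both below the family's median. Among chaperones, Psmd5 was highest (0.43 ± 0.157) and Psmg4 lowest (-0.39 ± 0.195). The inducible catalytic subunits Psmb10, Psmb9 and Psmb8 stood at -0.34 ± 0.184, -0.72 ± 0.462 and -1.08 ± 0.270. Few reads lay behind Psmb9, with 0.999 to 1.81 CPM in WT mRNA and 0.657 to 1.03 CPM in WT footprints, and Psmb8 had 3.50 to 4.50 CPM in WT mRNA. The order of the genes was kept in large part in the other genotypes. Over the 47 genes the ratio in WT had a Pearson r of 0.97 with that in FXS, 0.92 with S6K1 and 0.88 with DKO, where the genes are points that share libraries.

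Promoter windows from RefSeq (GRCm38.p6, 250 bases before to 50 after a start) were held for 40 of the 47 genes and were searched on both strands for sequence features that the symbol rule did not use. The core of the ETS-factor motif, CCGGAAG, was in 15 of 40 (37.5%) against 9.93% of 27025 genes with a window. It was in 9 of 14 regulatory particle genes and in 1 of 11 core particle genes. The antioxidant response element TGACNNNGC, the site type of the NRF transcription factors that control proteasome genes, was in 6 of 40 (15%) against 14% of all genes. It was in 2 of 11 core particle genes and 2 of 14 regulatory particle genes. The CCAAT box was in 14 of 40 (35%) against 41.1%, with 6 of 11 core particle genes and 4 of 14 regulatory particle genes. The 27025 genes were not limited by level in WT cortex, as the members were, so the 2 sets are unlike. In the 37 genes with a single window, matches of different motifs did not overlap in any (0 genes). The stretches below, which end at or before the start, are from Psmd11, Psmd12, Psmd6, Psmd2 and Psme4, which the following results name. Others are from Psmc1, whose low ratio is given above, and the catalytic subunit Psmb5. Capitals mark the match, which reads as its reverse complement (CTTCCGG for the ETS core) where the motif lies on the strand opposite to the gene.
Psmd11, ETS core (chr11:80428593-80428614, + strand): cgagggcgggtCTTCCGGgtgt
Psmd12, ETS core (chr11:107479500-107479527, + strand): tgagcgggcgaCTTCCGGtgcgagtgac
Psmd12, antioxidant response element (chr11:107479278-107479299, + strand): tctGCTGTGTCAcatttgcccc
Psmd6, ETS core (chr14:14120973-14121001, - strand): cagagacgcgaCCGGAAGtcagactggcg
Psmd2, ETS core (chr16:20651615-20651643, + strand): tccgcagggcgCTTCCGGtctggaggaca
Psmc1, ETS core (chr12:100110163-100110191, + strand): tggtggatgcaCTTCCGGcggtggcgatt
Psme4, ETS core (chr11:30771711-30771739, + strand): gtggccccgccCCGGAAGtgacttgaggc
Psmb5, antioxidant response element (chr14:54618024-54618052, - strand): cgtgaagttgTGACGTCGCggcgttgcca
A match is a string of letters and was not tested for binding. In the 4 ETS stretches of Psmd11, Psmd12, Psmd2 and Psmc1 the match lay within 28 bases of the start.

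Few proteasome genes were called between genotypes. In mRNA, 0 of 47 genes were called in FXS against WT, where 0.155% of the 14215 genes tested were called. In S6K1 against WT 0 were called, where 0.0211% of all genes were. In DKO against WT 1 was called, Psme4, where 5.23% of all genes were called and 2.06% were called lower. At an unadjusted p under 0.05 there were 5 of 47 (10.6%) in FXS against 12.7% of all genes, and 3 of 47 (6.38%) in DKO against 22.3% of all genes. In S6K1 there were 3 of 47 (6.38%) against 7.37%. The members' share was thus near or under that of all genes in each. DKO against FXS had 0 of 47 called (0.0281% of all genes), and the interaction of both losses had 0 of 47 (0% of all genes), with 4 of 47 (8.51%, all genes 9.81%) and 1 of 47 (2.13%, all genes 3.50%) at an unadjusted p under 0.05. DESeq2 also called 0 of 47 in each of these comparisons but DKO against WT, where it called 2, Psme4 and Psmd2. The share of all genes that DESeq2 called in mRNA is not given here. In the authors' deposited table for mRNA of DKO against WT, 2 of 46 members listed and 1046 of 12876 genes had an adjusted p under 0.05.

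The members with the smallest p in the uncalled mRNA comparisons were of mixed kinds. In FXS they were Psme2 (-0.23 ± 0.0816 SE, adjusted p = 0.245), Psmc3ip (-0.46 ± 0.172, adjusted p = 0.277) and Psma2 (-0.16 ± 0.0676, adjusted p = 0.330). In S6K1 they were Psmd2, the core chaperone gene Psmg3 (-0.28 ± 0.125, adjusted p = 0.657) and Psmb5 (0.17 ± 0.0806, adjusted p = 0.674). In DKO against FXS they were Psmb10, the core chaperone gene Psmg4 (0.43 ± 0.157, adjusted p = 0.375) and Psmb4 (0.19, adjusted p = 0.444). In DKO against WT, Psmf1 followed Psme4 and Psmd2 (0.19 ± 0.0899, adjusted p = 0.224).

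The median of the members' mRNA levels, after batch and genotype were fitted, varied by 0.0679 on the log2 scale (SD) between libraries. The median fitted change was of about that size in FXS and S6K1 and smaller in DKO. In FXS the median was -0.08 against -0.01 over all genes, with 8 of 47 above 0. All 14 core particle genes and all 7 chaperones were below 0, from -0.16 (Psma2) to -0.00 (Psmb6) and from -0.22 (Psmd10) to -0.01 (Psmd5), and 7 of 17 regulatory particle genes were above 0. Of the core particle genes 2 turned to above 0 under DESeq2's size factors, and 3 without WT replicate 2, WT replicate 4 or FXS replicate 2. Within batches the core particle median was 0.03 in batch 5, where 9 of 14 genes were above 0, and -0.15, -0.05 and -0.05 in batches 6, 7 and 8. In S6K1 the median over the 47 was 0.06 with 37 above 0, or 31 above 0 without scaling factors. It was 0.02 (28 above 0) without S6K1 replicate 1, 0.03 (28 above 0) without WT replicate 1, 0.02 (27 above 0) without batch 5 and 0.09 (39 above 0) without S6K1 replicate 4. Within batches the S6K1 core particle median was 0.15, 0.06 and 0.10 in batches 5, 6 and 7, and -0.18 in batch 8, where 1 of 14 genes was above 0. The regulatory particle median was 0.24, 0.10, 0.08 and -0.10 in batches 5 to 8. In DKO the median over the 47 was -0.03 with 18 above 0, or 13 without scaling factors.

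Psme4 mRNA was 126, 113, 115 and 98.3 CPM in WT, 113, 84.2, 101 and 104 in FXS, 114, 88.7, 99.7 and 118 in S6K1, and 114, 88.2, 76.3 and 86.4 in DKO. Of the DKO libraries 3 lay below all WT libraries, while DKO replicate 1 lay among them, so the groups overlapped. Psme4 encodes PA200, a ubiquitin-independent activator found mostly in nuclei, on chromosome 11 (chr11:30771775-30881150). Psme4 fell by 0.32 ± 0.0880 (SE) on the log2 scale in DKO against WT, adjusted p = 0.0386 in edgeR, and was lower in DKO in 4 of 4 batches, by between 0.142 and 0.591. The change in FXS was -0.17 and that in S6K1 was -0.11, neither called, and these comparisons share the WT libraries. Over 15 alternatives the adjusted p ran from 0.0108 to 0.419. The call was lost without WT replicate 1, 2 or 3 or DKO replicate 2, 3 or 4, with adjusted p from 0.0583 to 0.186 and changes from -0.36 to -0.24, and without the batch term, at adjusted p = 0.419. Psme4 was also the member that batch 5 raised most, by 0.26 over batches 6 to 8, and without batch 5 the change was -0.39, adjusted p = 0.0471. The authors' deposited table for mRNA gave Psme4 a log2 fold change of -0.32 in DKO against WT with an adjusted p of 0.0143.

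Psme4 footprints were not called. They were 60.1, 68.5, 63.4 and 56.9 CPM in WT, 102, 56.9 and 56.9 in DKO and 88.8, 57.7 and 54.8 in S6K1. In FXS they ran from 49.5 to 67.6 with a median of 52.9. The high values in DKO and S6K1 are both replicate 1, the libraries of batch 1, which held no WT or FXS library. With batch in the model the footprint change in DKO was -0.14 ± 0.0986 (adjusted p = 0.478, edgeR), and within batches 3 and 4 it was -0.27 and -0.08.

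Psmd2, the large scaffold subunit of the base, had the second smallest p in DKO mRNA. Its level was 358, 424, 402 and 402 CPM in WT, 397, 425, 456 and 421 in FXS, 429, 454, 463 and 442 in S6K1, and 395, 460, 463 and 441 in DKO. All 4 S6K1 libraries lay above all WT libraries, and DKO replicate 1 lay among the WT libraries. The differences from WT were 0.17 ± 0.0580 in S6K1 (adjusted p = 0.577) and 0.15 ± 0.0580 in DKO (adjusted p = 0.132, edgeR), and DKO was higher in 4 of 4 batches. DESeq2 called the DKO difference (adjusted p = 0.0345), as did the authors' deposited table for mRNA (log2 fold change 0.14, adjusted p 0.0453). Over 15 alternatives the adjusted p ran from 0.0345 to 0.497.

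**Figure D2:**
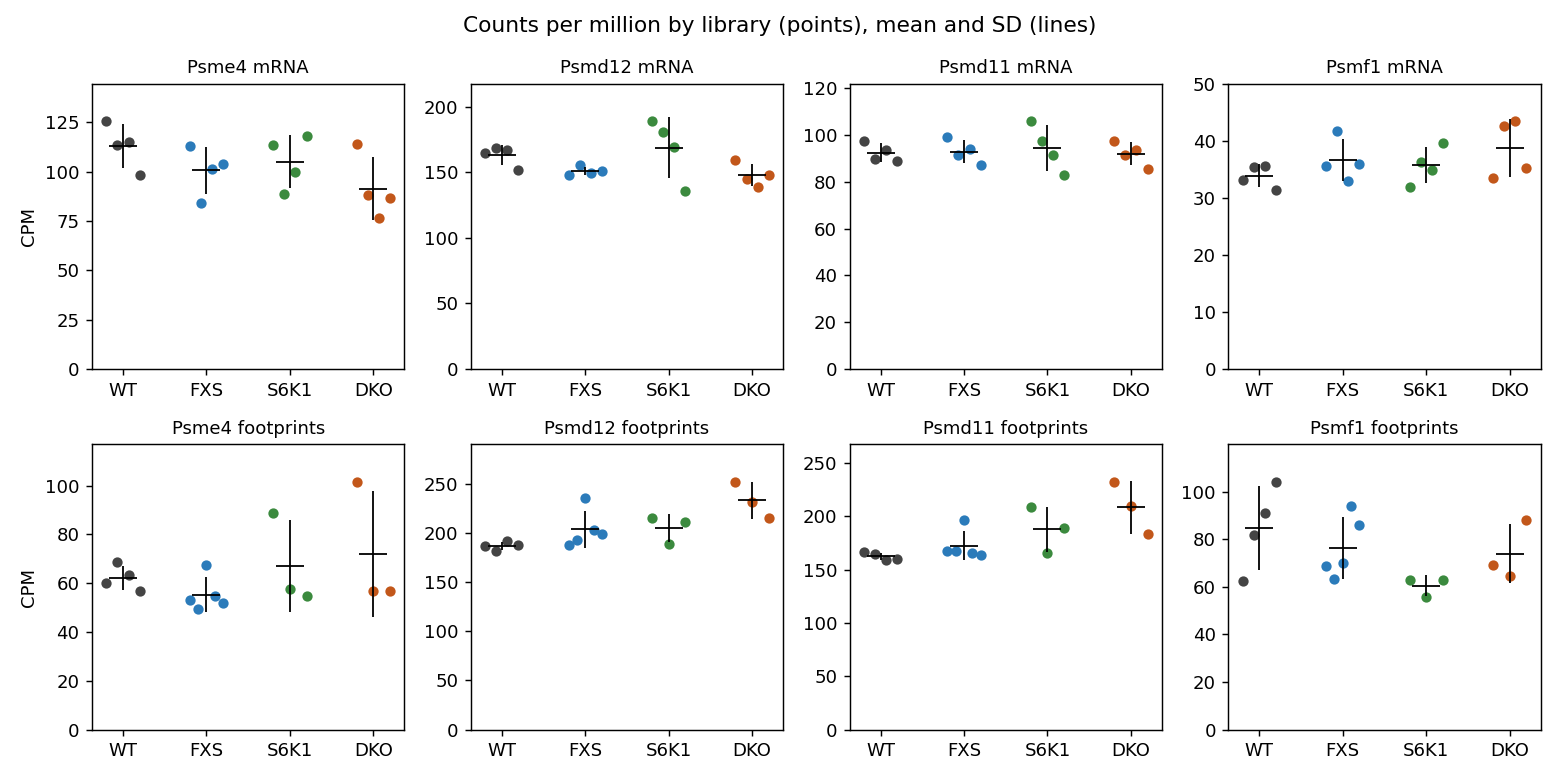
CPM (y axis, from 0) of Psme4, Psmd12, Psmd11 and Psmf1 in each library (points) by genotype (x axis), mRNA above and footprints below, with the mean and SD as black lines. Psmd12 and Psmd11 footprints are higher in every DKO library than in every WT library, Psme4 mRNA overlaps between them, and Psmf1 footprints spread from 62.3 to 104 CPM within WT.

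In footprints no proteasome gene was called in any comparison. FXS against WT had 0 of 47 (0.165% of 13953 genes tested), S6K1 against WT 0 of 47 (0.00717%), DKO against WT 0 of 47 (0.366%), DKO against FXS 0 of 47 (0.0143%) and the interaction 0 of 47 (0%). At an unadjusted p under 0.05 there were 3 of 47 in FXS (6.38%, all genes 9.87%), 2 in S6K1 (4.26%, all genes 8.74%) and 6 in DKO (12.8%, all genes 17.1%). There was 1 in DKO against FXS (2.13%, all genes 6.19%) and 0 in the interaction (all genes 3.07%). DESeq2 called 0 in the other 4 comparisons and 1 in DKO against WT, the lid gene Psmd11, as the authors' deposited table for footprints also did (log2 fold change 0.23, adjusted p 0.0452). That table listed 46 members, and 298 of its 12083 genes had an adjusted p under 0.05. Over all genes DESeq2 also called more than edgeR in DKO against WT, as given in the closing section.

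In FXS footprints the smallest p were those of Psmb10 (-0.35 ± 0.123, adjusted p = 0.346), the regulatory particle chaperone gene Psmd5 (0.17 ± 0.0659, adjusted p = 0.403) and Psmd12 (0.14 ± 0.0629, adjusted p = 0.502). In S6K1 they were those of Psmf1, Psmc3ip (0.64 ± 0.253, adjusted p = 0.501) and Psme4 (-0.21 ± 0.101, adjusted p = 0.584). In DKO against FXS they were those of Psmc3ip (0.55), Psmd11 (0.15) and Psmb8 (-0.48). Psmc3ip and Psmb8 are also among the members just inside the CPM limit. Over all 47 genes the median footprint change was 0.10 in DKO, 0.06 in FXS and -0.00 in S6K1. The median of the members' footprint levels, after batch and genotype were fitted, varied by 0.0567 (SD) between libraries. Without WT replicate 2 the FXS median was 0.02 and the DKO median 0.05, and without FXS replicate 3 the FXS median was 0.03.

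The regulatory particle genes all lay above 0 in the footprint comparison of DKO with WT. Their median log2 change was 0.13 (17 of 17 above 0, from 0.02 in Psmd3 to 0.23 in Psmd11), against 0.06 over the core particle (10 of 14), 0.11 over the chaperones (6 of 7) and -0.01 over all genes tested. At an unadjusted p under 0.05 there were 5 of 17 (29.4%) against 17.1% of all genes, 4 of them in the lid. In FXS all 17 were also above 0, with a median of 0.06, and both comparisons share the WT libraries. Those counts depended on single libraries. Without WT replicate 2, the WT library of batch 3, the regulatory particle median was 0.08 with 16 of 17 above 0 in DKO and 0.03 with 14 of 17 in FXS. Without FXS replicate 3, also of batch 3, it was 0.04 with 13 of 17 in FXS. Without DKO replicate 1 it was 0.14 with 16 of 17 in DKO. Within batches the DKO median was 0.17 with 15 of 17 above 0 in batch 3 and 0.13 with 17 of 17 in batch 4. The FXS median was 0.03, 0.25 and 0.05 in batches 2, 3 and 4.

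Psmd11 footprints were 166, 164, 159 and 160 CPM in WT and 233, 210 and 183 in DKO, so all DKO libraries lay above all WT libraries. They were 209, 166 and 189 in S6K1, and in FXS they ran from 164 to 197 with a median of 168. Psmd11 is a lid subunit (chr11:80428615-80473248). The difference between DKO and WT was 0.23 ± 0.0707 (SE), adjusted p = 0.147 in edgeR, or 0.0401 in DESeq2, and over 14 alternatives the adjusted p ran from 0.0401 to 0.480. Psmd11 mRNA averaged 92.6 CPM ± 3.99 (SD) over 4 WT libraries and 92.1 ± 5.04 over 4 DKO libraries, and thus differed by less than that spread. The lid gene Psmd6 had footprints of 180, 181, 182 and 188 CPM in WT and 261, 216 and 209 in DKO, again with no overlap. Its footprint difference was 0.20 ± 0.0778 (adjusted p = 0.222, edgeR). For both genes the highest DKO and S6K1 values were those of replicate 1, in batch 1, which held no WT library.

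Translational efficiency (TE), the footprint change minus the mRNA change in 1 model, gave 1 call. It was the lid gene Psmd12, higher in DKO than in WT, where 4.85% of 13654 genes were called and 1.85% were called higher. FXS against WT had 0 of 47 called (0.0952% of all genes), S6K1 against WT 0 of 47 (0.0293%), DKO against FXS 0 of 47 (0.0146%) and the interaction 0 of 47 (0%). At an unadjusted p under 0.05 there were 10 of 47 (21.3%) in DKO against 24.9% of all genes, and 10 of 47 (21.3%) in FXS against 13.4%. S6K1 against WT, DKO against FXS and the interaction had 1 of 47 each (2.13%), where all genes had 7.51%, 8.36% and 4.14%. DESeq2 called 0 of 47 in these 3 and in FXS, and 3 in DKO (Psmd6, Psmd11 and Psmd12). It also called more of all genes than edgeR in DKO TE, as given in the closing section. The median TE change over the 47 genes was 0.12 in FXS (all genes -0.01), -0.07 in S6K1 (all genes -0.02) and 0.16 in DKO (all genes -0.02). No single library has a TE, so the mRNA and footprint spreads of the members' median were combined, which gave 0.0885 (SD). Without FXS footprint replicate 3 the FXS median was 0.06, and without WT footprint replicate 2 the DKO median was 0.11.

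Psmd12 mRNA was 165, 169, 167 and 152 CPM in WT and 160, 145, 139 and 148 in DKO. Its footprints were 186, 181, 191 and 188 CPM in WT and 252, 232 and 215 in DKO. The mRNA groups overlapped, with DKO replicate 1 above WT replicate 4, while the footprint groups did not. In S6K1 the footprints were 215, 188 and 211 CPM, and in FXS they ran from 188 to 236 with a median of 199. The highest DKO and S6K1 values were again those of batch 1, which held no WT library. Psmd12 (chr11:107479528-107498036) is a lid subunit and the gene whose promoter stretches are printed above. Its TE rose by 0.37 ± 0.108 (SE) on the log2 scale in DKO against WT, adjusted p = 0.0464 in edgeR. The footprint part was 0.23 ± 0.0773 and the mRNA part -0.14, neither called (adjusted p = 0.170 for footprints). Within batches 3 and 4 the footprint difference was 0.35 and 0.18, and within batches 5 to 8 the mRNA difference ran from -0.26 to -0.04. Its TE call stood near the threshold. It was kept without DKO mRNA replicate 4 or WT footprint replicate 1 or 3, and lost without WT mRNA replicates 1 to 4, DKO mRNA replicates 1 to 3, WT footprint replicate 2 or 4 or any of the 3 DKO footprint libraries, with adjusted p from 0.0521 to 0.202. The call was also lost without footprint batch 1 (0.37, adjusted p = 0.0562, edgeR), an alternative added after seeing the data. Over 23 alternatives the adjusted p ran from 0.0153 to 0.202. The authors' deposited table for TE gave Psmd12 a log2 fold change of 0.38 and an adjusted p of 0.126.

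The next TE changes in DKO went both ways. Psmd6 stood at 0.28 ± 0.0953 (adjusted p = 0.0765), Psmf1 at -0.37 ± 0.126 (adjusted p = 0.0747) and Psmb10 at -0.47 (adjusted p = 0.0822), all in edgeR. Psmf1 (chr2:151716062-151744199) had 62.3, 81.9, 90.9 and 104 CPM of footprints in WT, 63.0, 55.6 and 63.1 in S6K1 and 69.2, 64.7 and 88.0 in DKO. The S6K1 values lay near the lowest WT value and the DKO values among the WT values. The difference in S6K1 was -0.29 ± 0.0917 in footprints (adjusted p = 0.333). Footprints of Psmf1 were also 0.44 higher on the log2 scale in batch 4 than in batches 2 and 3 over WT and FXS, the second largest such gap of the 47. Psmb10, the inducible counterpart of Psmb7, had 43.6, 47.4, 51.7 and 55.6 CPM of footprints in WT, 27.1, 27.7 and 44.9 in DKO and 22.5, 43.6 and 47.5 in S6K1. In FXS they ran from 29.2 to 45.4 with a median of 40.3. Psmb10 mRNA ran from 58.5 to 69.3 CPM in WT, from 52.7 to 60.5 in FXS and from 62.8 to 75.4 in DKO, and every DKO library lay above every FXS library. The mRNA difference of DKO and FXS was 0.28 ± 0.0725, adjusted p = 0.228 in edgeR.

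In FXS the TE changes with the smallest p were those of the regulatory particle chaperone gene Psmd10 (0.34 ± 0.121, adjusted p = 0.240), Psme1 (0.28 ± 0.107, adjusted p = 0.277) and Psma3 (0.24 ± 0.0966, adjusted p = 0.294). In S6K1 they were those of Psmf1 (-0.37 ± 0.129, adjusted p = 0.537), Psmd2 (-0.16 ± 0.0824, adjusted p = 0.696) and Psmb7 (-0.21 ± 0.113, adjusted p = 0.720). In DKO against FXS they were those of Psmb4 (-0.25, adjusted p = 0.576), Psmd11 (0.17, adjusted p = 0.605) and Psmd1 (0.16, adjusted p = 0.667).

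Over the classes, TE in DKO against WT had a median of 0.11 in the core particle (9 of 14 above 0), 0.15 in the regulatory particle (13 of 17) and 0.18 in the chaperones (5 of 7). The lid alone stood at 0.23 with 6 of 8 above 0. The constitutive catalytic subunits stood at -0.12, with Psmb5 at -0.24, so the core particle held values on both sides. In FXS the class medians were 0.11, 0.07 and 0.17 in the same order, and in S6K1 -0.09, -0.08 and -0.01. Psmb5, which carries the chymotrypsin-like site, had 241, 232, 257 and 291 CPM of footprints in WT, 179, 190 and 265 in DKO and 149, 233 and 251 in S6K1. Its lowest values in both genotypes were again the batch 1 libraries. Its fitted footprint change in DKO was -0.08 and was not called (adjusted p = 0.703, edgeR).

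**Figure D3:**
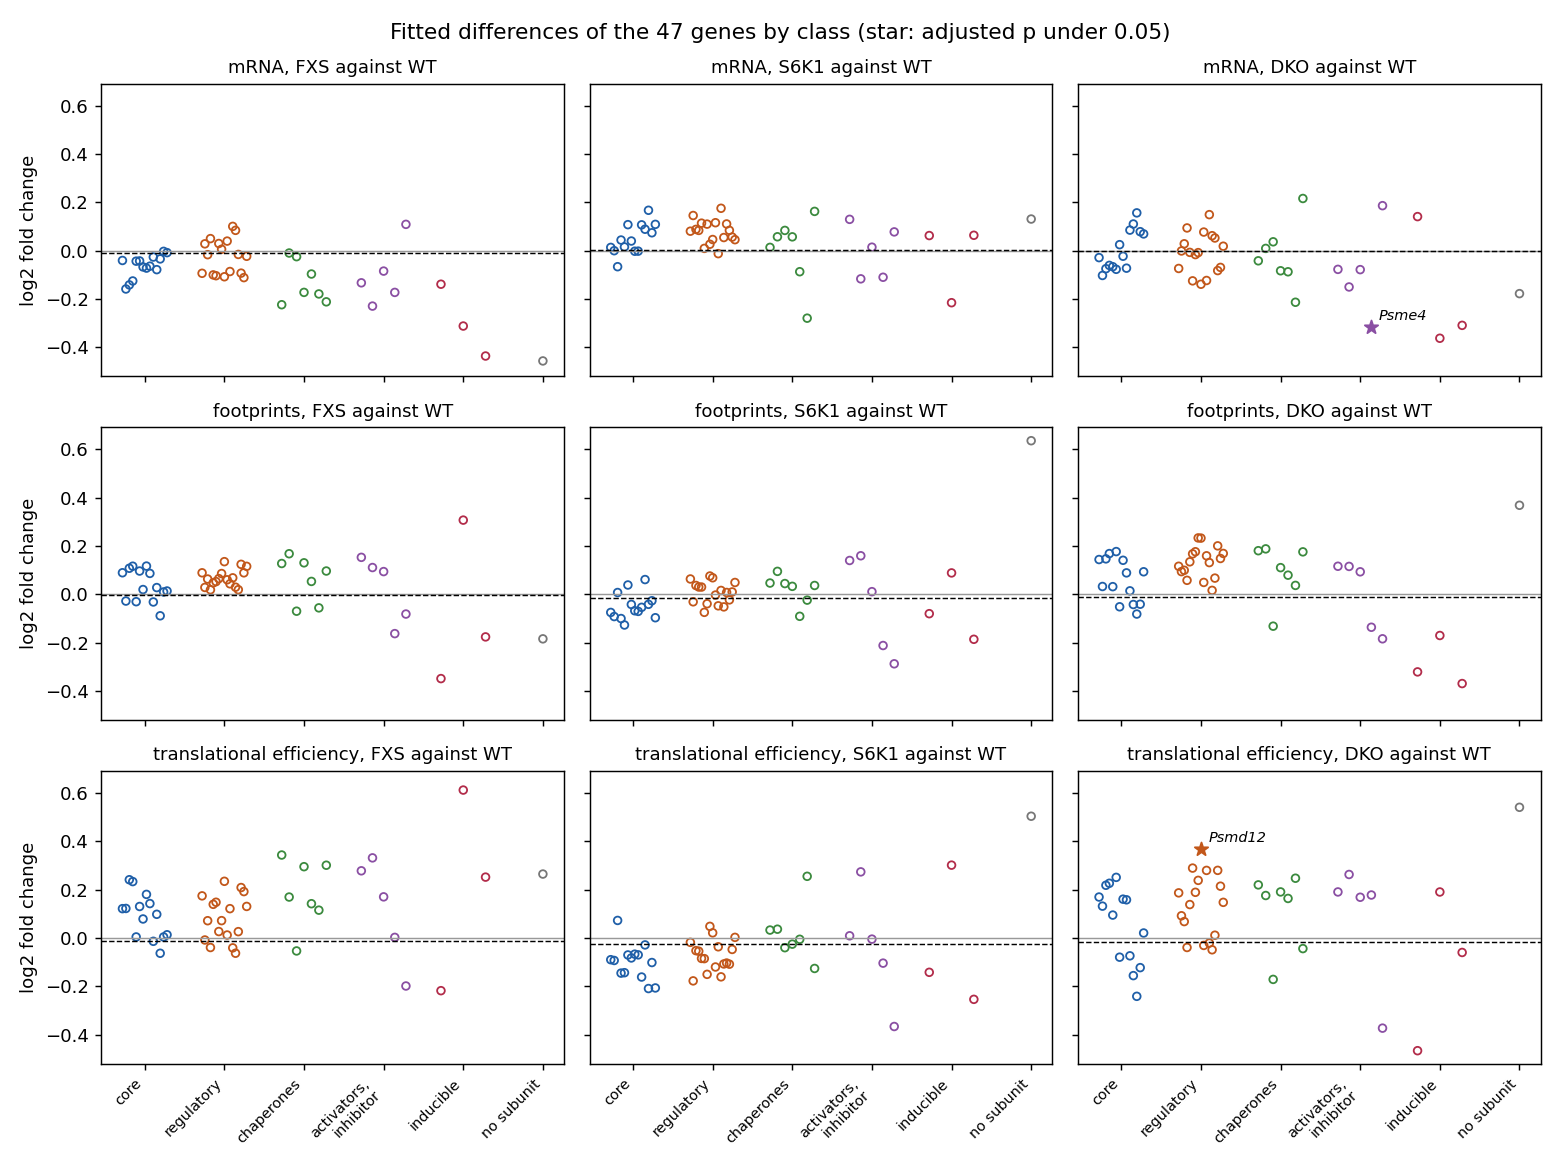
Fitted log2 fold change (y axis) of the 47 genes by class (x axis) for mRNA, footprints and TE (rows) in FXS, S6K1 and DKO against WT (columns, which share the WT libraries). Open circles are genes not called, stars the 2 called genes (Psme4 mRNA and Psmd12 TE in DKO), and dashed lines the median of all genes tested.

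Footprints also differed between batches. Those of the 47 genes in batch 4 minus batches 2 and 3, over WT and FXS libraries, had a median log2 difference of 0.09 (0.02 over all genes) and ran from -0.25 (Psmc6) to 0.60 (Psmb9). Its part in the DKO differences was not tested.

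Across libraries, the core and regulatory particle genes varied together once batch and genotype were removed. In mRNA the median correlation of residuals was 0.66 among the 91 pairs of core particle genes, with 91 of 91 above 0, 0.57 between core and regulatory particle, 0.48 within the regulatory particle and 0.34 between core and chaperones. It was 0.08 between core and activators and 0.09 between core and inducible subunits, and pairs of genes at large had a median of 0.00. Footprints gave 0.49, 0.37, 0.42, 0.24, 0.24 and -0.09 in the same order. All these values come from 16 or 15 libraries shared by every pair. The correlations were lower without single libraries. The mean residual of the 31 core and regulatory particle genes was -0.15 in S6K1 mRNA replicate 4 (batch 8), and from -0.05 to 0.08 in the other mRNA libraries. Without that library the median was 0.26 among core genes (67 of 91 above 0), 0.15 between core and regulatory particle, 0.12 within the regulatory particle and 0.10 between core and chaperones. In footprints FXS replicate 3 was highest at 0.10, and without it the first 4 values were 0.25, 0.22, 0.33 and 0.13.

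**Figure D4:**
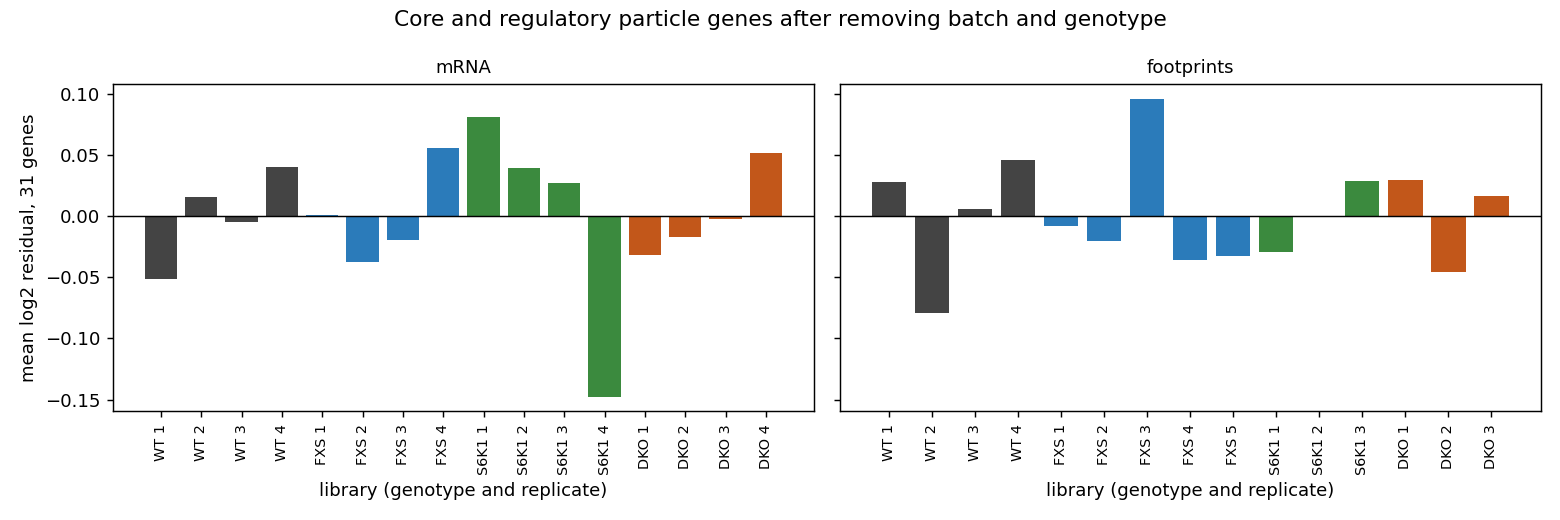
Mean log2 residual (y axis) of the 31 core and regulatory particle genes after batch and genotype were fitted, for each mRNA library (left) and footprint library (right), coloured by genotype. S6K1 mRNA replicate 4 (-0.15) and FXS footprint replicate 3 (0.10) lie farthest from 0.

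The genes closest to the common mRNA pattern were the core subunits Psmb1 (r = 0.97 with the mean of the other core and regulatory particle genes) and Psmb7 (0.96) and the ATPase gene Psmc2 (0.95). Psmf1 (-0.57), Psmb9 (-0.55), Psme4 (-0.46) and Psmc3ip (-0.41) ran against it. In footprints Psmd6 (0.95), Psmd7 (0.92) and Psma1 (0.91) were closest, and the chaperone gene Psmd9 (-0.45) ran against it. Outside the family, the mRNA patterns most alike over 16 libraries were those of Eif3h (r = 0.97), Elof1, Hax1, Mrpl28 and Ndufb5. The footprint patterns most alike over 15 libraries were those of Arpc5l (0.98), Tpt1, Rpl5, Wdr61 and Hdac3. All r of single genes include S6K1 mRNA replicate 4 or FXS footprint replicate 3, and are not given here without those libraries.

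Of 28 other genes of the ubiquitin and proteasome pathway that were tested, in no comparison but DKO against WT was any called (0 genes). In DKO mRNA 2 were called higher and 3 lower, where 5.23% of all genes were called and 2.06% were called lower. The ubiquitin receptor Adrm1, a subunit of the regulatory particle with another kind of symbol, rose by 0.24 ± 0.0701 (adjusted p = 0.0479, edgeR) and the shuttle factor Ubqln2 rose by 0.28 ± 0.0726 (adjusted p = 0.0283). Uchl5, a deubiquitinase that binds Adrm1, fell by 0.36 ± 0.0939 (adjusted p = 0.0297), Akirin2, which brings proteasomes into nuclei, fell by 0.23 ± 0.0673 (adjusted p = 0.0473) and Nfe2l2, a transcription factor of the antioxidant response, fell by 0.37 ± 0.110 (adjusted p = 0.0471). Nfe2l1, the NRF factor that restores proteasome genes after inhibition, stood at 0.14 ± 0.0639 (adjusted p = 0.181). In footprints none was called in DKO (0 genes of 28, 24 above 0). In TE, where 4.85% of all genes were called and 1.85% called higher, 3 were called higher in DKO, the ubiquitin-activating enzyme Uba6 (0.65 ± 0.167, adjusted p = 0.0316), the proteasome-bound thioredoxin Txnl1 (0.44 ± 0.125, adjusted p = 0.0423) and Akirin2 (0.35 ± 0.103, adjusted p = 0.0474). The mRNA fall of Akirin2 enters its TE with the opposite sign. Calls among these 28 genes were not followed under the alternatives of the closing section. There, edgeR without the replicate block called few genes of any kind in DKO against WT.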

How the data were processed

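Ribosome footprints and polyadenylated mRNA of cortex were counted by the authors, and the deposited tables hold raw counts per gene symbol, as whole numbers, for 31 libraries. Coding sequence was the region counted, going by the tables' names. The submitters' processing notes name cutadapt 2.0, Bowtie2, TopHat2, RSEM and mm10, with no roles. The sources used here do not say which annotation and filters were applied, or whether the counts are rounded RSEM estimates. The authors' 6 deposited comparison tables hold, per the file headers, a mean normalized signal, a log2 fold change, a test statistic (score) and raw and adjusted p-values. Their tool and model are not given in the sources used here.

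Counts were scaled by TMM factors (0.956 to 1.09) and fitted with edgeR 4.0.16 (quasi-likelihood F-test, robust, R 4.3.3) with batch and genotype as terms and all genotypes together, after filterByExpr. TE came from a joint fit to the 31 libraries of both assays, in which batches belong to their assay. Standard errors come from the F statistic. Log2 CPM used a prior count of 0.5, and the SD of a ratio combines the spread of both assays. DESeq2 1.42.0 and the other alternatives are given in the closing section. The procedure was tested on simulated data. Replicate pairs all differed beyond sampling noise (lowest chi-square per degree of freedom 4.81 in mRNA and 8.09 in footprints). The block is the batch of the labels, which held each genotype once in mRNA.

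The rule for named genes took Fmr1, Rps6kb1, Psmb5 to Psmb10, Psmc3ip, the members called or, under 3 calls, the 3 with the smallest p in each comparison, the class extremes of the WT ratio, members beside the CPM limit and the 5 other genes most alike in mRNA. Other members, and the genes most alike in footprints, were named after their values were seen. The members, classes and lists were chosen with earlier results of these data known. Coding lengths were not used here, so CPM is not read as a difference in abundance between genes. A marker result that involves a withheld item is not reported here.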

Additional observations from a re-analysis of the deposited data

Results flagged for a closer look

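In 138 groups of 4 or 5 libraries of 23 genes, 10 single values lay far from the rest of their group by Dixon's criterion, which chance meets in about 1 in 20 groups. Of these, 6 were high footprint values in FXS replicate 3, the FXS library of batch 3. They were Psma2 at 256 CPM (the others at 187 to 205), Psma3 at 261 (188 to 205), Psmd1 at 334 (276 to 289), Psmd11 at 197 (164 to 168), Psmd6 at 230 (184 to 196) and Psme4 at 67.6 (49.5 to 54.7). In mRNA, Psmd6 was low in S6K1 replicate 4 at 128 CPM (154 to 155), the library in which the core and regulatory particle genes were lowest together. Psmb4 was high in FXS replicate 1 at 239 CPM (210 to 214), Psme1 low in FXS replicate 3 at 55.2 CPM (56.8 to 56.9) and Psmc3ip low in WT replicate 4 at 3.19 CPM (4.73 to 5.00).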

How the results depend on the processing

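Alternatives were recomputed gene by gene for the members called or with the smallest p in each comparison. Their direction held except for the footprint change of Psme4 in S6K1, which was -0.21 and turned to 0.11 without the replicate block (batch). Counts of called members in DKO against WT were not stable. In mRNA, where 1 was called, there were 0 without the replicate block, 2 with DESeq2 and 0 to 1 with 1 library left out. In footprints, where 0 were called, DESeq2 called 1. In TE, where 1 was called, there were 0 without the replicate block, 0 with no filter on low counts, 3 with DESeq2, 0 with only the 2 genotypes fitted, 0 without mRNA batch 5 (an alternative added after seeing the data) and 0 to 2 with 1 library left out. Without the replicate block the members' median footprint change rose from 0.10 to 0.18 in DKO against WT, from 0.04 to 0.13 in DKO against FXS and from 0.04 to 0.11 in the interaction. Over all genes of DKO against WT, DESeq2 called 290 in footprints where edgeR called 51, and 1141 against 662 in TE, while edgeR without the replicate block called 2 in mRNA (743 with it), 6 in footprints and 2 in TE. The causes were not tested. The chaperones' WT ratio minus that of all genes was 0.34, and 0.31 to 0.43 with 1 WT library left out. Densities per coding kilobase were not run, since coding lengths were not used here. DKO and S6K1 had 3 footprint libraries each, 1 of them in a batch without WT, which limits those comparisons.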
